A study of Mus musculus with 16 samples.

Results

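Smc4 encodes a core subunit of condensin, and it was studied here with 9 other genes of the structural maintenance of chromosomes (SMC) complexes in splenic CD4+ T cells. The 10 genes are Smc4, Smc2, Ncapd2 and Ncaph2 of condensin, Smc1a, Smc3, Rad21 and Stag2 of cohesin, and Smc5 and Smc6 of the SMC5/6 complex. They were taken from both deposited tables by gene symbol, and each matched 1 of 47643 Ensembl gene identifiers. Smc4 was chosen because its level had differed between genotypes in the CD25- CD4+ libraries, so its values in that contrast, and in the contrasts that share those libraries, are a description with no test. The other 9 genes were named for their place in the complexes and did not enter through a difference of their own.

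The series compared TRaGS mice, in which the receptor for thyroid hormone encoded by Thra can no longer bind DNA, with wild-type littermates, called TRaWT. From each spleen CD4+ T cells were enriched on magnetic columns and sorted by flow cytometry into a CD25- fraction, labelled naive and called CD4 below, and a CD25+ fraction of regulatory T cells, called Treg. There were 4 mice of each genotype, and both fractions of a mouse were sequenced, which makes 16 libraries in 4 groups of 4: CD4 TRaWT, CD4 TRaGS, Treg TRaWT and Treg TRaGS. All animals were untreated as far as the labels say, and their age, sex and strain background were not stated in the labels. The labels name no tissue-restricted promoter or Cre, so a restriction of the mutation to T cells is not stated.

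SMC complexes are rings built from a pair of long SMC proteins that hinge at one end and are closed at the other by a bridging protein, the kleisin. They use ATP to move along DNA and fold it into loops. Condensin compacts chromosomes for mitosis, and in resting T cells it is known for the compaction of chromatin that accompanies quiescence. Cohesin holds sister chromatids together and, with the boundary factor CTCF, shapes the loops that bring enhancers and promoters together. The SMC5/6 complex is known for its part in DNA repair and replication. Thyroid hormone receptors act mainly by binding short response elements near their target genes.

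Recovered depth was 2679119 to 5095278 reads in the CD4 libraries and 2912038 to 4154027 in the Treg libraries. The libraries count 3' ends of polyadenylated transcripts, so 1 transcript gives about 1 tag whatever its length, and levels are normalised counts that are not divided by length. CD4 TRaGS replicate 2 stood apart from the other CD4 libraries: it was the deepest, with 5095278 reads, its share of reads on the ribosomal RNA-overlapping gene Gm42418 was 21.1% where the other 7 had 27.1% to 41.1%, and its share on mitochondrial genes was 14.4% where the others had 8.87% to 12.02%. The sorted identity held in every library: the summed level of 5 Treg markers (Foxp3, Il2ra, Ikzf2, Ctla4 and Tnfrsf18) lay between 620 and 1259 in CD4 libraries and between 6775 and 9397 in Treg libraries. Thra was measured in all 16 libraries at 73.3 to 211 normalised counts with overlapping genotypes, which neither checks nor contradicts the labels, since the mutation concerns the protein's contact with DNA.

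Smc4 (ENSMUSG00000034349) lies on chromosome 3, 69004738 to 69034623, plus strand, in GRCm38. An intron of it holds the miRNA genes Mir15b and Mir16-2, whose mature products are shown because they are made from the same primary transcript as the Smc4 mRNA and share a seed. The letters come from RefSeq on GRCm38.p6, and capitals mark the seed, bases 2 to 8:
mmu-miR-15b-5p, chr3:69009775-69009796: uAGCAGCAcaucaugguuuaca
mmu-miR-16-5p, chr3:69009918-69009939: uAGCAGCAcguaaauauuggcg
Both seeds read AGCAGCA. Mature miRNAs carry no poly(A) tail and were not measured by these libraries, and reads at the 2 hairpin genes averaged 0 in CD4 and 0.104 and 1.05 normalised counts in Treg.

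Promoter sequences, from 250 bases before to 50 bases after the annotated start, were at hand for 7 of the 10 genes in the RefSeq table. The promoters of 3 genes are printed: that of Smc2, the partner that pairs with Smc4 in both condensins, that of Smc5, where a thyroid hormone half-site lies, and that of Smc6, whose level followed Smc4 across Treg libraries. A total of 4 motifs were searched on both strands. The half-site AGGTCA was in 16.3% of 32851 promoters and a direct repeat, a pair of AGGTCA copies spaced by NNNN, in 0.0152%. The cell cycle gene element TTTGAA was in 17.9% and CCAAT in 37.4%. Capitals mark the matches, on either strand:
Smc2, chr4:52438971-52439270, plus strand: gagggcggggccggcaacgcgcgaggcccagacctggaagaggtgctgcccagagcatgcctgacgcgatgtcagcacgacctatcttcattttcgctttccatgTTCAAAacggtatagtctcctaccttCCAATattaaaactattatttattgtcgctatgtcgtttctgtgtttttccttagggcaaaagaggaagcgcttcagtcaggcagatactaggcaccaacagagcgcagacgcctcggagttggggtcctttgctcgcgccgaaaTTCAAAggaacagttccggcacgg
Smc5, chr19:23272550-23272849, minus strand: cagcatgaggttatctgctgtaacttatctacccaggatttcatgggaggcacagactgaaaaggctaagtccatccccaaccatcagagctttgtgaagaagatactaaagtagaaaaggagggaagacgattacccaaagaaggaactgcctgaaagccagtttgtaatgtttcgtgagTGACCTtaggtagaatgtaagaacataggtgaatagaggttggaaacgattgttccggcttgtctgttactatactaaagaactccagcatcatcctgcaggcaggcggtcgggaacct
Smc6, chr12:11265636-11265935, plus strand: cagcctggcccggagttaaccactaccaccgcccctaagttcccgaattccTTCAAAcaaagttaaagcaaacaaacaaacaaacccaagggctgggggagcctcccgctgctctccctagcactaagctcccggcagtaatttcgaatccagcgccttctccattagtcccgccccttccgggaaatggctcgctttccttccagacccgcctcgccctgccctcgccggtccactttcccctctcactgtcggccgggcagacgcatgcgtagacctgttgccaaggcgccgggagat
Smc5 held the half-site once, as TGACCT, and the other 6 promoters had no AGGTCA in this window. The Smc5 window follows the RefSeq start. In the GENCODE annotation it lies inside the gene, whose 5' end is at 23273897. The direct repeat was in none of the 7. Smc2 held TTTGAA 2 times and CCAAT once, Smc6 held TTTGAA once, and Ncapd2, a condensin I subunit whose promoter is not printed, held TTTGAA once and CCAAT 3 times. A match is a string of letters and was not tested as a binding site.

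The 10 genes covered a wide range of levels, with Smc4 far above the rest. In TRaWT CD4 cells Smc4 averaged 5649 ± 727 normalised counts (SD, n = 4) and ranked between 14th and 22nd of all genes by library. Smc6 followed at 1845 ± 117, then Smc1a at 1402 ± 82.9, Smc3 at 950 ± 162, Stag2 at 923 ± 149 and Rad21 at 642 ± 131. Smc2 stood at 219.7 ± 73.8, Smc5 at 179.5 ± 43.5, Ncaph2 at 147 ± 72.2 and Ncapd2 at 64.8 ± 24.6. Neighbours in that order whose ranges over libraries overlapped were Smc3 with Stag2, Stag2 with Rad21, each pair among Smc2, Smc5 and Ncaph2, and Ncaph2 with Ncapd2. Smc4 alone made up 46.8% ± 3.62 of the summed level of the 10 genes. The reads behind a value were 3913 to 23646 for Smc4 but 23 to 168 for Ncapd2 and 26 to 296 for Ncaph2, so counting error weighs most on those condensin subunits. Ncaph2 shares exons with Sco2 on the opposite strand and Ncapd2 overlaps Scarna10 on its own strand, and since it is not stated whether counting used the strand, the values of both genes are uncertain.

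**Figure D1:**
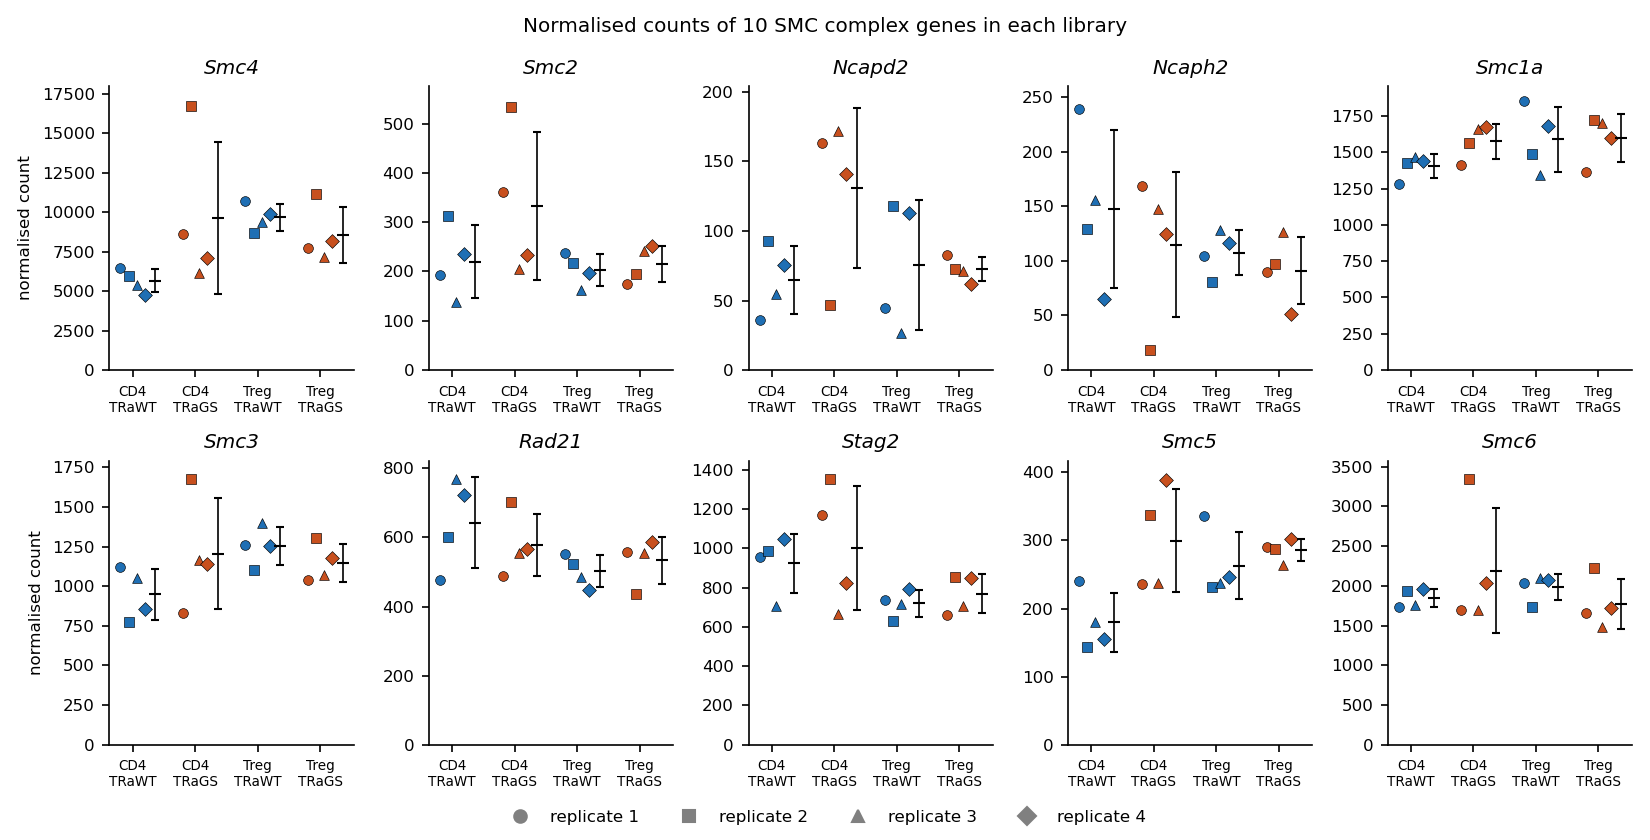
Normalised count of each of the 10 genes in each library (vertical axes, linear, starting at 0), by group on the horizontal axis; blue marks TRaWT, orange TRaGS, the marker shape the replicate, and the bar beside each group the mean ± SD of 4 libraries. The square of CD4 TRaGS replicate 2 is the highest CD4 point for Smc4, Smc2, Smc3, Stag2 and Smc6 and the lowest for Ncaph2.

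The first comparison asks how the loss of DNA binding by the receptor changed CD4 cells. Smc4, the ATPase subunit shared by both condensins, stood at 6459, 5965, 5401 and 4772 normalised counts in TRaWT CD4 replicates 1 to 4 and at 8624, 16718, 6167 and 7117 in TRaGS replicates 1 to 4. TRaGS replicate 2 was at 1.94 times the next library, and the genotypes overlapped, with TRaGS replicate 3 below TRaWT replicate 1. The means were 5649 ± 727 and 9657 ± 4815 (SD, n = 4 each), a ratio of 1.71 and a log2 difference of 0.67 ± 0.15 (SE). In bulk samples of this kind, more cells that express a gene and more RNA per cell cannot be told apart. That SE comes from the variance trend over all genes, because limma gave each CD4 gene the trend value at its level. The SE from the spread of Smc4 itself was 0.33. Without TRaGS replicate 2 the log2 difference was 0.37 ± 0.14, and with TRaGS replicates 1 and 2 alone on the mutant side it was 1.11 ± 0.18. In both fractions the titles give TRaGS replicates 3 and 4 the highest animal and library numbers, and no TRaWT animal lies in that range. What this numbering stands for is not stated, and the genotype contrasts carry it. Of 10426 genes tested in CD4, 6 (0.0575%) passed an adjusted p of 0.05, all higher in TRaGS, and Smc4 was 1 of them by the choice that brought it here. It was not called with edgeR or DESeq2 on the recovered reads, with its own variance, with log2(value + 5), without a filter, with a mean of at least 20, with upper-quartile scaling or with a replicate block, nor in 5 of the 8 fits that left out 1 library.

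The 3 other condensin genes did not pass the test in CD4, and their estimates had wide errors. Smc2, which pairs with Smc4 to form the condensin core, stood at 194, 312, 137 and 235 in TRaWT and at 362, 534, 205 and 233 in TRaGS. Its libraries overlapped, with the 2 highest values in TRaGS replicates 1 and 2, the libraries that were also highest in Smc4. The log2 difference was 0.56 ± 0.38 (limma adjusted p = 0.947), and the range of 2 SE on each side ran from -0.20 to 1.32, which holds the Smc4 value.

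Ncapd2, the HEAT-repeat subunit of condensin I, was at 36.3, 92.7, 54.4 and 75.6 in TRaWT and at 163, 46.7, 172 and 141 in TRaGS. In Ncapd2 3 of 4 TRaGS libraries lay above every TRaWT library, and TRaGS replicate 2 lay among them at the low end, opposite to its place for Smc4. The log2 difference was 0.92 ± 0.62 (limma adjusted p = 0.947), and the range of 2 SE, -0.31 to 2.16, holds the Smc4 value. Ncaph2, the kleisin of condensin II, was at 239, 129, 156 and 64.6 in TRaWT and at 168, 18.4, 148 and 125 in TRaGS. It was lowest in TRaGS replicate 2, at 26 reads, and the other 7 libraries mixed. Its log2 difference was -0.60 ± 0.55 (limma adjusted p = 0.947), with a range of 2 SE from -1.70 to 0.50 that does not hold the Smc4 value, and became 0.14 without that library. The Smc4 value chose that gene and has an error of its own, so setting the ranges of the other condensin genes beside it is a description.

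For the pair of Smc4 and Smc2, which is not the whole complex, the mean ratio was nearly the same in both genotypes of CD4 cells. It averaged 28.02 ± 9.94 in TRaWT and 28.9 ± 3.44 in TRaGS (SD, n = 4 each), with a range of 19.1 to 39.4 and of 23.8 to 31.3. The summed level of Smc2, Ncapd2 and Ncaph2 was 432 ± 86.1 in TRaWT and 579 ± 87.3 in TRaGS, and the ranges of 347 to 535 and 498 to 693 overlapped. This sum leaves out condensin genes outside the 10, among them Ncapd3, which was at 133 ± 44.4 in TRaWT CD4 and 64.4 ± 59.4 in TRaGS CD4. The share of Smc4 in the sum of all 10 genes was 46.8% ± 3.62 and 54.8% ± 6.90.

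None of the 4 cohesin genes passed the test in CD4. Smc1a, one of the paired SMC subunits of cohesin, was at 1280.4, 1426, 1466 and 1437 in TRaWT and at 1412, 1562, 1659 and 1673 in TRaGS, with 3 TRaGS libraries above all of TRaWT and TRaGS replicate 1 among them. Its log2 difference was 0.17 ± 0.22 (limma adjusted p = 0.947). Smc3, its partner, was at 1119.7, 774, 1051 and 855 in TRaWT and at 830.0, 1678, 1168 and 1143 in TRaGS. Of the CD4 values of Smc3, both the highest and the next to lowest were in TRaGS, and the log2 difference was 0.31 ± 0.24 (limma adjusted p = 0.947). Rad21, the cohesin kleisin, differed by -0.14 ± 0.28 and Stag2, a subunit that binds to Rad21, by 0.08 ± 0.24 on the log2 scale (limma adjusted p = 0.977 and 0.987). Rad21 spanned 476 to 769 in TRaWT and 488 to 703 in TRaGS, so its TRaGS libraries lay within the TRaWT range. Stag2 spanned 707 to 1045 in TRaWT and 664 to 1355 in TRaGS, with 2 TRaGS libraries above every TRaWT library and 1 below. The summed cohesin level was 3918 ± 129 and 4362 ± 636.

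Neither SMC5/6 gene passed the test in CD4. Smc5 was at 241, 143, 179.7 and 155 in TRaWT and at 236, 338, 237 and 388 in TRaGS, where TRaWT replicate 1 lay above 2 TRaGS libraries. Its log2 difference was 0.73 ± 0.40, larger than that of Smc4 but with a wider error (unadjusted p = 0.067, limma adjusted p = 0.947). Smc6, its partner, was at 1734, 1931, 1755 and 1959.8 in TRaWT and at 1690.4, 3342, 1695 and 2042 in TRaGS. TRaGS replicate 2 was at 1.64 times the next library, the lowest 2 libraries were also TRaGS, and the log2 difference was 0.19 ± 0.20 (limma adjusted p = 0.947), or -0.03 without TRaGS replicate 2.

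Of the 9 genes beside Smc4, 0 were called in CD4 by limma, 0 had an unadjusted p under 0.05, which 5.17% of all genes tested had, and edgeR and DESeq2 on the recovered reads also called 0. Of the 9 log2 differences, 7 were positive, with a median of 0.19 where all genes tested had a median of -0.01. No gene of the 10 had genotypes without overlap, which 3.16% of all genes tested had. Treg markers moved with genotype in these CD4 libraries, at a summed level of 620 to 907 in TRaWT and 905 to 1259 in TRaGS, and their part in these values was not tested.

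**Figure D2:**
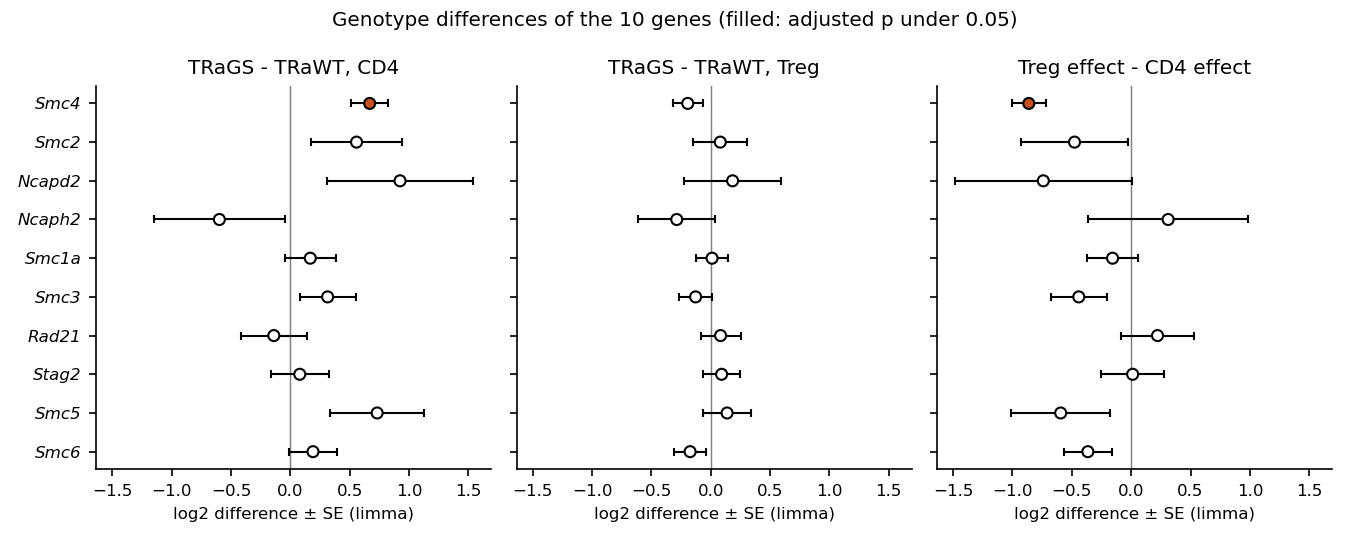
Log2 difference ± SE of each gene from limma: TRaGS minus TRaWT in CD4 (left), the same in Treg (middle) and the Treg difference minus the CD4 difference (right); filled points had an adjusted p under 0.05 over all genes. Smc4 is filled at left (0.67) and at right (-0.86), where it was chosen from the CD4 libraries, and all points in the middle lie between -0.29 and 0.18.

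Other genes of the same complexes were read from a list of 31 that the 10 do not include, with loaders, release factors, acetyltransferases, regulators and the remaining subunits. Of these, 19 reached the level needed for testing in CD4, 0 were called by limma and 1 had an unadjusted p under 0.05 (5.17% of all genes tested), with a median log2 difference of 0.05. In Treg 22 were tested, 0 were called and 3 had an unadjusted p under 0.05 (9.12% of all genes tested), with a median of -0.05. The condensin subunits Ncaph and Ncapg2 were close to absent in CD4, and these and the next 2 genes are named after their values were seen. Ncaph, the kleisin of condensin I, averaged 0 normalised counts in TRaWT CD4 and 0.244 in TRaGS CD4, and 3.89 and 4.84 in Treg. Ncapg2, a HEAT-repeat subunit of condensin II, averaged 0.305 and 0 in CD4 and 0.662 and 4.64 in Treg. Ncapd3, the other HEAT-repeat subunit of condensin II, was at 133 ± 44.4 in TRaWT CD4 and 64.4 ± 59.4 in TRaGS CD4 (SD, n = 4 each), a log2 difference of -1.49 ± 0.65 (limma adjusted p = 0.947). The cohesin loader Nipbl was the most abundant of the listed genes named here, at 2275 ± 292 and 2366 ± 241 in CD4, and differed by 0.06 ± 0.19 on the log2 scale (limma adjusted p = 0.987).

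Genes of proliferation were read beside condensin because condensin acts on mitotic chromosomes. Of 30 listed, 15 were tested in CD4, 0 were called by limma and 2 had an unadjusted p under 0.05 (5.17% of all genes tested), with a median log2 difference of -0.34 and 5 positive. Mki67, the nuclear proliferation antigen, averaged 45.3 ± 28.01 in TRaWT CD4 and 29.7 ± 12.9 in TRaGS CD4 (SD, n = 4 each), while Smc4 in the same libraries was at 4772 or more. In Treg 21 were tested and 15 were positive, with a median of 0.37. Of all 11051 genes tested 5577 were positive, with a median of 0.01. Mki67 alone of the list was called, where 0.959% of all genes tested were. It was at 102 ± 66.2 in TRaWT and 218 ± 77.3 in TRaGS, a log2 difference of 1.31 ± 0.35 (limma adjusted p = 0.0496, just under the threshold).

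The second comparison set the genotypes against each other in Treg, in libraries that had no part in the choice of Smc4. Smc4 stood at 10707, 8705, 9405 and 9888 normalised counts in TRaWT replicates 1 to 4 and at 7718, 11151, 7191 and 8176 in TRaGS replicates 1 to 4. A group of 3 TRaGS libraries lay below all 4 TRaWT libraries and TRaGS replicate 2 lay above all of them. The means were 9676 ± 841 and 8559 ± 1774 (SD, n = 4 each), a ratio of 0.884 and a log2 difference of -0.19 ± 0.13 (limma adjusted p = 0.701). The range of 2 SE on each side, -0.45 to 0.06, did not reach the CD4 value of 0.67. That CD4 value chose Smc4 and has an error of its own (SE 0.33 from its own spread). Setting the values side by side is therefore a description and no test. Without TRaGS replicate 2 the difference was -0.33 ± 0.11 (limma adjusted p = 0.232).

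None of the 10 genes was called in Treg, where 106 of 11051 genes (0.959%) were, 81 higher and 25 lower in TRaGS. None had an unadjusted p under 0.05, which 9.12% of genes had, edgeR and DESeq2 called 0 as well, and genotypes overlapped for all 10, while 5.07% of genes tested had no overlap. Smc2 was at 238, 216, 162 and 197 in TRaWT and at 174, 194, 241 and 251 in TRaGS, which mixed completely, with a log2 difference of 0.08 ± 0.23 (limma adjusted p = 0.962). Ncapd2 differed by 0.18 ± 0.41 and Ncaph2 by -0.29 ± 0.33 (limma adjusted p = 0.949 and 0.875).

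Among the cohesin genes in Treg, Smc1a differed by 0.01 ± 0.14, Smc3 by -0.13 ± 0.14, Rad21 by 0.08 ± 0.17 and Stag2 by 0.09 ± 0.16 on the log2 scale, with limma adjusted p from 0.867 to 0.992. Their summed level was 4066 ± 286 in TRaWT and 4048 ± 306 in TRaGS (SD, n = 4 each). Smc6 was at 2032, 1735, 2098 and 2072 in TRaWT and at 1664, 2223, 1485 and 1721 in TRaGS, the same layout as Smc4, with TRaGS replicate 2 on top and the other 3 TRaGS libraries at the bottom. Its log2 difference was -0.17 ± 0.14 (limma adjusted p = 0.778), and that of Smc5 was 0.14 ± 0.20 (limma adjusted p = 0.910). The summed level of 6 B cell markers moved with genotype in the Treg libraries, at 870 to 1218 in TRaWT and 1633 to 1958 in TRaGS, and its part in these values was not tested.

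The third comparison asked whether the genotype difference itself differed between the fractions, from the log2 difference between the Treg and the CD4 library of an animal. The limma fit, and the share of genes without overlap, used values scaled within each fraction. With all 16 libraries scaled together, the differences for Smc4 were 0.54, 0.36, 0.60 and 0.84 in TRaWT animals 1 to 4. They were -0.33, -0.77, 0.01 and -0.00 in TRaGS animals 1 to 4. All 4 TRaWT animals had more Smc4 in Treg than in CD4 (23.0% of genes had 1 sign in all 4 TRaWT animals, and 26.1% in all 4 TRaGS animals), 2 TRaGS animals had less and 2 had about equal levels, and the genotypes did not overlap. The genotype effect in Treg minus that in CD4 was -0.86 ± 0.14 (SE), with the spread of Smc4 itself giving an SE of 0.22. Without animal TRaGS 2 it was -0.70 ± 0.13. Both values use CD4 libraries from which Smc4 was chosen. In this fit 14 of 10874 genes (0.129%) were called, 12 of them lower, and Smc4 was among them. That count for Smc4 uses the CD4 libraries that chose it and depends on the variance model: with the variance trend taken on the mean difference, an alternative chosen after seeing the data, its SE was 0.40 and it was not called. It was also not called without a filter, with its own variance or in 1 model of all libraries without the block.

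None of the other 9 genes was called for this difference by limma (adjusted p from 0.780 to 0.999), 0 had an unadjusted p under 0.05, which 6.53% of genes had, and edgeR and DESeq2 called 0 of them. Of the 9 values, 6 were negative and 3 positive. Smc3 gave -0.44 ± 0.24, Smc6 -0.36 ± 0.20, Smc2 -0.48 ± 0.45, Smc5 -0.59 ± 0.42, Ncapd2 -0.74 ± 0.75 and Smc1a -0.16 ± 0.21. Ncaph2 gave 0.31 ± 0.67, Rad21 0.22 ± 0.31 and Stag2 0.01 ± 0.27. Smc5 was, with Smc4, the other gene whose animal differences did not overlap between genotypes. With all libraries scaled together they were 0.29, 0.51, 0.19 and 0.45 in TRaWT against 0.14, -0.42, -0.06 and -0.56 in TRaGS. Such separation occurred in 3.69% of all genes tested. The median over the 9 was -0.36 where all genes had 0.03, and these values reuse the CD4 libraries of the first comparison.

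**Figure D3:**
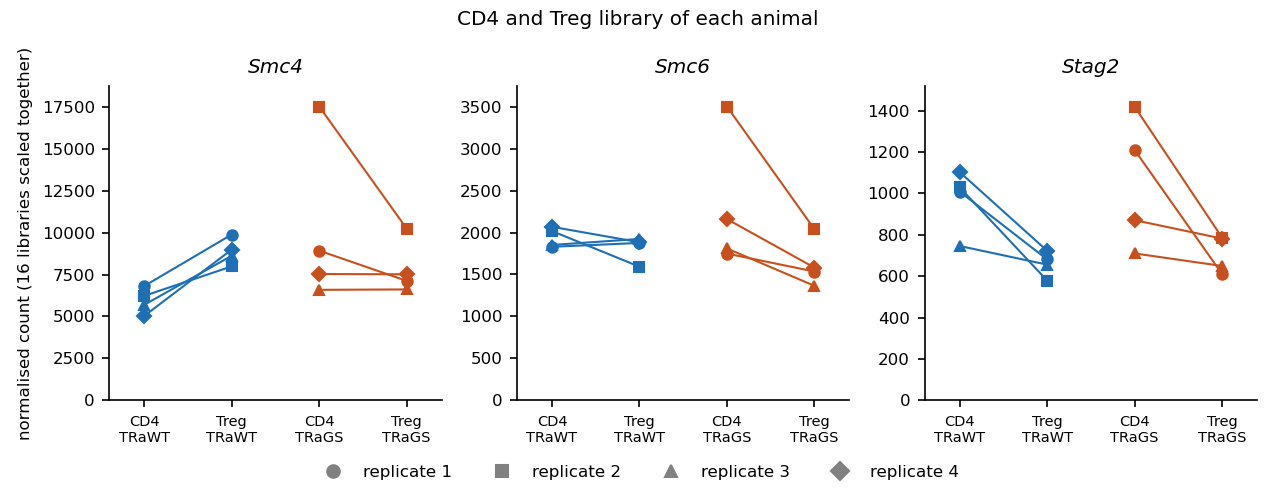
Level of Smc4, Smc6 and Stag2 in the CD4 and the Treg library of each animal (vertical axes, normalised counts with the 16 libraries scaled together, starting at 0); each line joins the 2 libraries of 1 animal, blue for TRaWT and orange for TRaGS, with the marker shape as replicate. Smc4 rises from CD4 to Treg along all 4 TRaWT lines and along no TRaGS line by more than 0.01 log2, and Stag2 falls along all 8 lines.

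The fractions were then compared within each genotype on the scale common to all 16 libraries. In TRaWT Smc4 averaged 5945 ± 759 in CD4 and 8872 ± 793 in Treg (SD, n = 4 each), and every Treg library lay above every CD4 library. Fractions without overlap, in either direction, occurred in 10.1% of genes tested. The CD4 libraries took part in the choice of Smc4, so its values here are a description. The log2 difference was 0.58 ± 0.18, and with the animal as a block it was 0.58 ± 0.10. In TRaGS it averaged 10139 ± 5009 in CD4 and 7870 ± 1620 in Treg, with a log2 difference of -0.27 ± 0.18 and overlap between the fractions. On the same scale the median over all genes was shifted by 0.09 in TRaWT and 0.19 in TRaGS, so the TRaWT difference of Smc4 exceeded that shift and its TRaGS value lay below it. The ratio of Smc4 to Smc2 averaged 48.4 ± 7.59 in TRaWT Treg and 41.0 ± 12.6 in TRaGS Treg, and in each genotype this was above the CD4 mean of 28.02 and 28.9, although the lowest TRaGS Treg library, at 29.8, lay within the CD4 range.

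Of the 10 genes 0 were called between fractions in TRaWT, where 236 of 10838 genes (2.18%) were, and 0 in TRaGS, where 747 (6.89%) were. None of the 10 had fractions without overlap in TRaGS, which 13.2% of genes had. Of the 9 genes beside Smc4, 2 had an unadjusted p under 0.05 in TRaWT, where 13.4% of all genes had, and 3 in TRaGS, where 21.3% had, and edgeR and DESeq2 called 0 of the 10 in either genotype. With the animal as a block, Smc4 was called in TRaWT, where 3.24% of genes were, and Smc6 was called in TRaGS, where 8.17% were. The TRaWT CD4 libraries took part in the choice of Smc4, so its call is a description and no test. Smc6 was lower in Treg by a log2 difference of -0.46 ± 0.18 in TRaGS (limma adjusted p = 0.113, and 0.0261 with the block) and of -0.10 ± 0.18 in TRaWT (limma adjusted p = 0.889).

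Stag2, a cohesin subunit, was lower in Treg than in CD4 in all 8 animals, a pattern of 1 sign in every animal that 8.41% of genes showed. Its animal differences were -0.57, -0.83, -0.19 and -0.61 in TRaWT and -0.99, -0.85, -0.13 and -0.16 in TRaGS. In TRaWT the fractions did not overlap, as in 10.1% of genes, and the log2 difference was -0.55 ± 0.21 (limma adjusted p = 0.183). In TRaGS it was -0.53 ± 0.21 (limma adjusted p = 0.116), with overlap. Rad21 leaned the same way at -0.53 ± 0.22 in TRaWT and -0.31 ± 0.22 in TRaGS (limma adjusted p = 0.236 and 0.435). Smc1a and Smc3 differed by -0.03 ± 0.16 and 0.21 ± 0.19 in TRaWT and by -0.18 ± 0.16 and -0.22 ± 0.19 in TRaGS.

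In TRaGS the log2 difference between fractions was negative for all 10 genes, with a median of -0.29, while the median of all genes was 0.19. Smc2 gave -0.73 ± 0.32 (limma adjusted p = 0.166) and Ncapd2 -0.88 ± 0.53 (limma adjusted p = 0.343). In TRaWT 7 of the 10 were negative, with a median of -0.12. The TRaGS CD4 libraries enter these values as well as the first comparison. The median of all genes depended on the tool: edgeR gave -0.10, DESeq2 -0.07 and scaling by the upper quartile 0.31, where the median of the 9 genes beside Smc4 was -0.54, -0.50 and -0.18. All 10 TRaGS values stayed negative in these 3 fits, and leaving out animals changed the sign of Ncaph2, whose estimate was -0.21 ± 0.52.

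Single libraries carried much of the variation in CD4. CD4 TRaGS replicate 2 was the highest of the 8 CD4 libraries for 5 of the 10 genes, Smc4, Smc2, Smc3, Stag2 and Smc6, and the lowest for Ncaph2. Over all genes tested it was the highest for 27.6%, and among the 288 genes that averaged 1000 normalised counts or more for 52.8%, so its place at the top was common among abundant genes. The Treg library of the same animal was the highest Treg library for Smc4, Smc6 and Stag2. Across the 8 CD4 libraries log2 Smc4 followed the mitochondrial share (Pearson r = 0.900, exact permutation p = 0.008, adjusted p = 0.036 over 6 such relations; Spearman rho = 0.762, exact permutation p = 0.037, adjusted p = 0.208). Without the 2 libraries farthest from the median share r was 0.322, so the relation rested on those libraries. The share on Gm42418 gave r = -0.824 (exact permutation p = 0.012, adjusted p = 0.036; Spearman rho = -0.690, exact permutation p = 0.069, adjusted p = 0.208) and -0.227 without the 2 farthest libraries. Recovered reads gave r = 0.838 (exact permutation p = 0.036, adjusted p = 0.072; Spearman rho = 0.476, exact permutation p = 0.243, adjusted p = 0.321) and 0.550 without the 2 farthest. In Treg the mitochondrial share gave r = 0.300 (exact permutation p = 0.461), the Gm42418 share -0.431 (exact permutation p = 0.281) and recovered reads 0.530 (exact permutation p = 0.170). The part of these library measures in the Smc4 values was not tested.

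**Figure D4:**
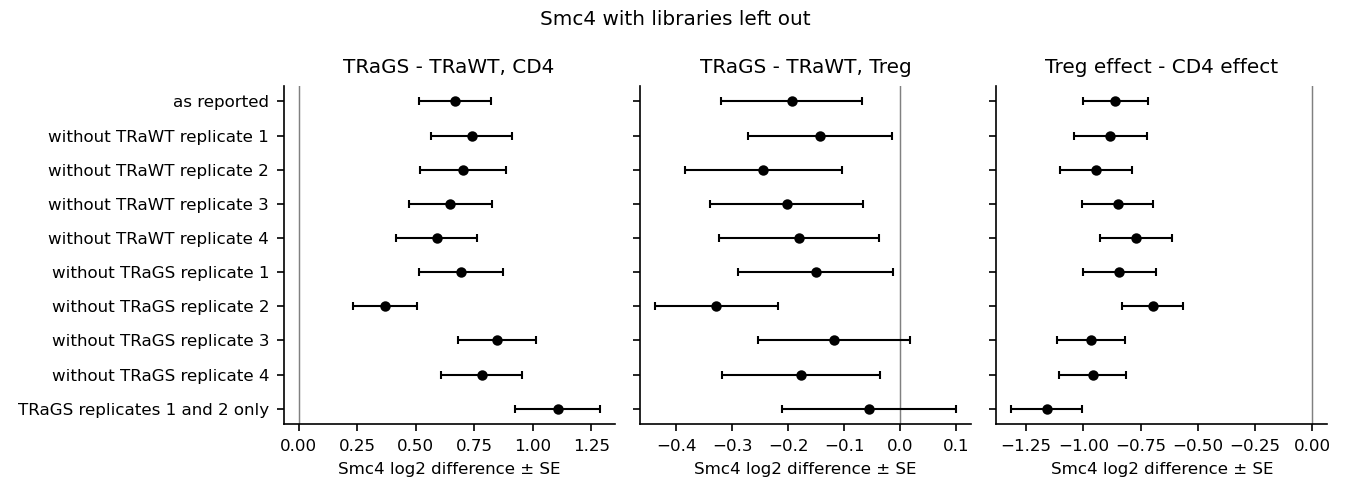
Log2 difference ± SE of Smc4 as reported, with each animal left out in turn, and with TRaGS replicates 1 and 2 alone on the mutant side, for the CD4 contrast (left), the Treg contrast (middle) and the Treg difference minus the CD4 difference (right). Leaving out TRaGS replicate 2 moves the CD4 value from 0.67 to 0.37 and the Treg value from -0.19 to -0.33, and the right panel stays between -1.16 and -0.70.

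Whether Smc4 varied with its complex was also read across the 8 libraries of each fraction, 18 relations of Smc4 with another gene on the log2 scale. In CD4 Smc2 gave Pearson r = 0.808 (exact permutation p = 0.015, adjusted p = 0.131) and Spearman rho = 0.524 (exact permutation p = 0.197, adjusted p = 0.535), and r was 0.148 without the 2 libraries farthest from the median. In Treg Smc2 gave r = -0.188 (exact permutation p = 0.645) and rho = -0.286 (exact permutation p = 0.501). The CD4 value of Smc2 rested on the extreme libraries.

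Smc6, of a different complex, followed Smc4 most closely among the 9 other genes in Treg. It gave Pearson r = 0.947 (exact permutation p = 0.001, adjusted p = 0.014) and Spearman rho = 0.905 (exact permutation p = 0.005, adjusted p = 0.082), r = 0.882 without the 2 libraries farthest from the median, and r = 0.933 on deviations from the genotype means. Of 3977 genes other than Smc4 that averaged 100 normalised counts or more, 0 had a higher r with Smc4 over these 8 libraries. The ratio of Smc4 to Smc6 was accordingly narrow in Treg, at 4.89 ± 0.337 in TRaWT and 4.81 ± 0.160 in TRaGS (SD, n = 4 each), where CD4 had 3.08 ± 0.527 and 4.31 ± 0.863. In CD4 the r of Smc6 was 0.801 (exact permutation p = 0.094), with rho = 0.071 and r = 0.031 without the 2 libraries farthest from the median. Smc3 gave r = 0.787 in Treg (exact permutation p = 0.026, adjusted p = 0.155) and Rad21 gave -0.676 (exact permutation p = 0.074, adjusted p = 0.190), so subunits of 1 cohesin ring leaned in opposite directions, neither past the threshold.

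**Figure D5:**
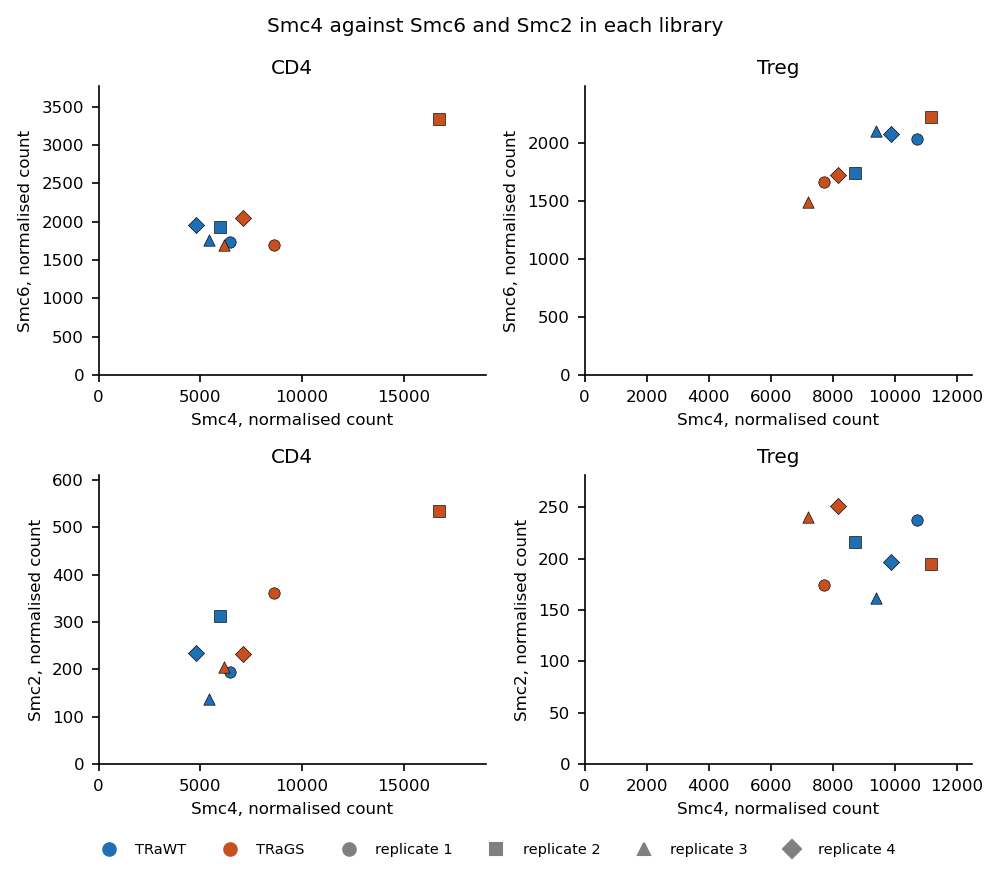
Normalised counts of Smc6 (upper row) and Smc2 (lower row) against Smc4 in the 8 CD4 libraries (left) and the 8 Treg libraries (right), all axes starting at 0; blue marks TRaWT, orange TRaGS, and the shape the replicate. In Treg the points of Smc6 fall along a line (r = 0.947 on the log2 scale), while in CD4 1 library, TRaGS replicate 2, stands far from the other 7 for both genes.

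The genes outside the complexes whose pattern was most like that of Smc4 were named by Pearson r on log2 values over 8 libraries, among genes that averaged 100 normalised counts or more. In CD4, of 3813 such genes, they were Larp4b, an RNA-binding protein gene (r = 0.983), Ms4a4b, a T cell membrane protein gene (0.979), Rnf115, a ubiquitin ligase gene (0.976), Dek, a chromatin protein gene (0.974), and Nfatc3, a T cell transcription factor gene (0.973). All 5 were highest in CD4 TRaGS replicate 2. In Treg, of 3977, they were Upf2 of nonsense-mediated decay (0.928), Ms4a4b again (0.915), the ribosomal protein genes Rpl34 (0.911) and Rpl32 (0.910), and Phf20l1, a chromatin reader gene (0.896). For comparison, 308 genes had a higher r with Smc4 than Smc2 did in CD4, and 2750 did in Treg. These libraries share depth and scaling, and the values are descriptions.

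Between the fractions of the same animal 0 of 10 relations of CD4 with Treg log2 levels passed adjustment over 8 animals. Smc5 had the highest Pearson r, at 0.736 (exact permutation p = 0.040, adjusted p = 0.202; Spearman rho = 0.810, exact permutation p = 0.022, adjusted p = 0.218), and 0.618 without the 2 animals farthest from the median. Rad21 had the lowest, at -0.816 (exact permutation p = 0.019, adjusted p = 0.190; rho = -0.690, exact permutation p = 0.069, adjusted p = 0.347), and -0.779 without the 2 farthest. Smc4 gave 0.293 (exact permutation p = 0.523), and -0.363 without the 2 farthest. On deviations from the genotype means, given as a description, r was 0.854 for Smc4, 0.832 for Smc3, 0.795 for Smc6, 0.743 for Smc5 and -0.800 for Rad21, and between -0.186 and 0.410 for the other 5 genes. These r values were not recomputed with animals left out, and animal TRaGS 2 had the highest CD4 library for Smc4, Smc3 and Smc6. Within each genotype the animal with the most Smc4 in CD4, TRaWT 1 and TRaGS 2, also had the most in Treg.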

How the data were processed

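Per the labels' protocols, column-purified RNA was made into 3' mRNA libraries read in the forward direction. The submitters' processing notes name the build GRCm38. No source states the aligner or counter. What the authors deposited is 1 table per fraction of normalised counts, a signal unit of reads per library divided by 1 size factor. Whole reads were recovered from the steps (100% of values whole within 0.001), and these reads were used for edgeR 4.0.16, DESeq2 1.42.0, depth and the scale common to both fractions (median-of-ratios factors over 16 libraries). With edgeR on these reads 3 genes were called in the CD4 contrast and 90 in the Treg contrast. Levels in Treg and CD4 were compared on that scale because the tables were normalised separately. The limma fit of the genotype difference between fractions kept the scaling within each fraction.

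For genes averaging 5 or more, limma 3.58.1 in R 4.3.3 was fitted to log2(value + 1) with a trend in the variance, and p-values were adjusted by Benjamini-Hochberg over all genes (threshold 0.05). This scale understates changes of low genes. For the difference between fractions the trend was on mean expression. The same-animal pairing of fractions comes from the titles. Correlations of paired deviations were 0.001 to 0.042, so the levels over all genes do not show this pairing. Fits were also run on simulated data. Those libraries were drawn independently, with no animal effect and no outlying library, so the runs cover neither case. The 10 genes and all lists were chosen with earlier results of these data known. Named besides the 10 were up to 4 called genes per list and comparison, and 5 genes per fraction most like Smc4. Named outside that rule, after their values were seen, were Ncaph, Ncapg2, Ncapd3, Nipbl and 5 proliferation genes with negative values; Ift80 and Trim59 were named for their position, and Thra and the marker genes as checks. Symbols came from the reference gene table, coordinates from GENCODE on GRCm38. Alternatives were pseudocounts of 0.5 and 5, no filter, a minimum mean of 20, scaling by the upper quartile, edgeR, DESeq2, each gene's own variance, the replicate or animal block, TRaGS replicates 1 and 2 alone, and leaving out each animal. Correlations used numpy 2.4.6 and pandas 2.3.3, and figures matplotlib 3.10.9. Molecular identifiers are not mentioned for the kit, and reads may then be copies of 1 molecule.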

Additional observations from a re-analysis of the deposited data

Results flagged for a closer look

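Smc5 in Treg TRaWT was 336 normalised counts in replicate 1, the highest library, while the other 3 libraries were at 231, 237 and 246. The gap to the nearest library was 0.856 of the whole range, above Dixon's 95% critical value for 4 samples. It was the 1 such case among 40 sets of 4 libraries examined, where chance gives about 1 in 20, and its part in other values was not tested.

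The genotype effect on Smc4 in Treg minus that in CD4 was -0.86 on the log2 scale, and it passed the test of the difference over all genes. Smc4 was chosen from the CD4 libraries that enter this value, so it is a description.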

How the results depend on the processing

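Of 990 values recomputed under 19 or fewer alternatives per result, 965 were scored as unchanged. For most this meant the same direction and side of the threshold, counting as such uncalled values smaller than their own SE whatever their sign. For Smc4 outside the Treg genotype contrast, only sign and size were scored, so a lost call did not count as a change. The 990 also held counts of genes called, scored as unchanged when the count stayed the same. In CD4 the number of the 10 genes called, 1 as reported (Smc4), was 0 with log2(value + 5), without a filter, with a mean of at least 20, with upper-quartile scaling, with edgeR, with DESeq2, with each gene's own variance and with a replicate block by number. With 1 library left out it was 0 to 1, with 0 without TRaWT replicate 2, 3 or 4 or TRaGS replicate 1 or 2. Over all genes, correlations of deviations were -0.021 to 0.046 between libraries of the 2 genotypes with the same replicate number. They were 0.001 to 0.042 between the fractions of an animal, so this measure showed neither pairing. In Treg the count was 0 throughout, also with the block. For the difference between fractions the count of 1 became 0 without a filter, with own variance, without the replicate block (1 model of all libraries) and with the variance trend on the mean difference, chosen after seeing the data; it was 1 with any animal left out. Between fractions in TRaWT the count of 0 became 1 with upper-quartile scaling and with the animal as replicate block, and 0 to 1 over left-out animals (1 without TRaGS replicate 2). In TRaGS it became 1 with the block and with TRaGS replicates 1 and 2 alone, where Stag2 was at -0.94 (adjusted p = 0.0433). Ncaph2 in CD4 reversed to 0.14 without TRaGS replicate 2. The cause of these changes was not tested.

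Log2 values of Smc4 ran from 0.37 to 1.11 in CD4, from -0.33 to -0.06 in Treg and from -1.16 to -0.70 for the difference. Upper-quartile scaling moved the median of all genes in CD4 to -0.12 and in the difference to 0.14. Genes called in CD4, 6 as reported, were 1 without a filter, 3 with edgeR, 10 with DESeq2, 0 with own variance, 27 with TRaGS replicates 1 and 2 alone, and 1 to 9 over left-out libraries. In the same order 106 in Treg became 62, 90, 138, 0, 46 and 56 to 108, and 14 for the difference became 1, 17, 41, 0, 31 and 9 to 26, with 3 without the block and 0 with the trend on the mean difference. Where limma with own variance called 0, 517 genes in CD4, 894 in Treg and 651 for the difference had an unadjusted p under 0.05, and with the trend on the mean difference 644. Between fractions 236 in TRaWT became 132 without a filter, 480 with DESeq2 and 86 to 438 over left-out animals, and 747 in TRaGS became 492, 1223 and 355 to 713, with 464 for TRaGS replicates 1 and 2 alone. Depth limits Ncapd2 and Ncaph2 most, at 23 to 168 and 26 to 296 reads per library.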

Other observations

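The gene whose 5' end lies next to that of Smc4 differed between fractions in TRaWT. Ift80, encoding a subunit of the intraflagellar transport complex, lies on chromosome 3, 68892499 to 69004570, minus strand, in GRCm38, with 167 bases between its 5' end and that of Smc4. It averaged 296 ± 58.8 normalised counts in TRaWT CD4 and 879 ± 127 in TRaWT Treg (SD, n = 4 each), and on the common scale Treg was higher by a log2 difference of 1.38 ± 0.25 (limma adjusted p = 0.00056). In TRaGS it averaged 448 ± 182 in CD4 and 601 ± 80.5 in Treg, and the log2 difference was 0.32 ± 0.25 (limma adjusted p = 0.485). The genotype difference of Ift80 was 0.51 ± 0.34 in CD4 and -0.55 ± 0.16 in Treg (limma adjusted p = 0.947 and 0.102), and the difference between these was -1.06 ± 0.33 (limma adjusted p = 0.315), the same signs as for Smc4. Trim59, encoding a ubiquitin ligase, whose 3' end lies 664 bases from that of Smc4 on the opposite strand, gave 0.58 ± 0.54 in CD4, -0.11 ± 0.22 in Treg and -0.69 ± 0.54 for the difference (limma adjusted p = 0.947, 0.943 and 0.861). These neighbours were chosen for their position, with the Smc4 values known.

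Between fractions, 1 of 21 proliferation genes tested was called in TRaWT, where 2.18% of all genes were, and 2 of 21 in TRaGS, where 6.89% were. The list's median log2 difference was 0.38 in TRaWT and 1.06 in TRaGS, beside 0.09 and 0.19 for all genes. In TRaGS animals Mki67 was higher in Treg by 2.69 ± 0.61 and Top2a, the topoisomerase that works with condensin on mitotic chromosomes, by 1.87 ± 0.53 on the log2 scale (limma adjusted p = 0.00422 and 0.0227), while Smc4 gave -0.27 ± 0.18. In TRaWT animals Tk1, a thymidine kinase of S phase, was higher in Treg by 3.76 ± 1.03 (limma adjusted p = 0.0397), and Mki67 and Top2a, at 1.05 ± 0.61 and 0.40 ± 0.53, did not pass the test (limma adjusted p = 0.487 and 0.835), while Smc4 gave 0.58 ± 0.18. In TRaGS 5 of the 21 had negative values, none past the test, and they are named after their values were seen: Mcm3 at -0.78, Tubb5 at -0.56, Mcm4 at -0.56, Mcm7 at -0.46 and Mcm6 at -0.34.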
